A study of Mus musculus with 4 samples.

Results

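The 10 genes examined here were selected by name from the 33981 genes in the deposited tables, and encode proteins of the neuronal cytoskeleton or proteins linked to the regrowth of axons. They are the neurofilament subunits Nefl, Nefm and Nefh, the microtubule-associated genes Mapt and Map2, the tubulin Tubb3, the tubulin-binding gene Stmn2, the growth cone gene Gap43, and Sprr1a and Atf3, which are induced in injured peripheral neurons. Each name matched 1 identifier, and all 10 are protein-coding genes. RNA was measured by sequencing of poly(A) RNA from a coronal brain section that included the prefrontal cortex, in male C57BL/6J mice aged 3 to 5 months.

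There were 4 groups of 6 libraries. NT + Sham mice received saline and a sham operation, and NT + Stroke mice received saline and a photothrombotic stroke, in which light clots the vessels of a chosen cortical area. HT + Sham and HT + Stroke mice were infused with angiotensin II, which raises blood pressure, at a dose of 0.28 mg/kg per day for 28 days, and had the sham operation or the stroke. In all groups surgery was on day 7 and tissue was taken on day 28. The sham operation left out the illumination. The labels do not tie libraries to animals. Since the tables number the libraries of a group from 1 to 6, a library was taken as 1 mouse, and otherwise the p-values measure only the spread between libraries.

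Neurofilaments are the intermediate filaments of axons and set their calibre. Microtubules, built from tubulin and held by proteins such as tau and MAP2, carry transport along axons and dendrites. After axon injury, peripheral neurons switch on growth and stress genes that most adult cortical neurons switch on poorly. In a bulk sample, fewer neurons and less RNA per neuron cannot be told apart.

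Total counts were 15922919 to 24865998 per library. Neuronal tissue was present in every library, since all 7 markers of excitatory cortical neurons were detected in each group, with a summed level of 3914 to 6396 CPM (counts of a gene relative to the library total, scaled by the TMM method). Libraries were also read with 6 markers of lesion macrophages (Cd68, Lgals3, Gpnmb, Spp1, Cd5l and Cst7). None of them was at 0 in all 6 libraries of a group, but Cd5l was close to 0 in NT + Sham, at 0.0724 ± 0.153 CPM (SD). The summed level of the 6 markers was 27.7 to 33.1 CPM in NT + Sham and 185 to 759 CPM in NT + Stroke. In HT + Sham, library 6 was at 196 CPM while the highest of the others was at 41.0 CPM. In HT + Stroke, library 1 was at 50.9 CPM and library 6 at 54.5 CPM, while the lowest of the others was at 210 CPM. Those 3 libraries therefore go against the labels of their groups on these markers, and the results of HT mice are given with and without them. Markers of neighbouring regions also varied, with a summed level of 5 olfactory bulb markers of 62.5 to 147 CPM in NT + Sham, 101 to 406 CPM in NT + Stroke, 108 to 491 CPM in HT + Sham and 35.1 to 307 CPM in HT + Stroke, and of 6 striatal markers of 236 to 1112, 279 to 1550, 168 to 755 and 586 to 1944 CPM in the same order. The part of these marker differences in the results was not tested.

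In NT + Sham brain the 10 genes spanned a wide range of levels per unit of gene length (FPKM). Tubb3, the neuronal beta-tubulin, was highest at 349 ± 29.7 FPKM (SD, n = 6), followed by Gap43 at 239 ± 14.1 FPKM. Nefl followed at 92.1 ± 3.08, Stmn2 at 75.1 ± 3.15 and Mapt at 54.2 ± 4.46 FPKM. Nefm at 34.1 ± 1.79 and Map2 at 27.9 ± 3.70 FPKM came next, and their libraries overlapped. Nefh was at 13.8 ± 1.01 FPKM. Atf3 at 0.413 ± 0.0973 and Sprr1a at 0.176 ± 0.174 FPKM were lowest, and these also overlapped. No other neighbours in this order overlapped. In NT + Stroke the ranges of Stmn2 (46.8 to 58.9 FPKM) and Mapt (44.9 to 50.9 FPKM) met, so their order was no longer separated.

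**Figure D1:**
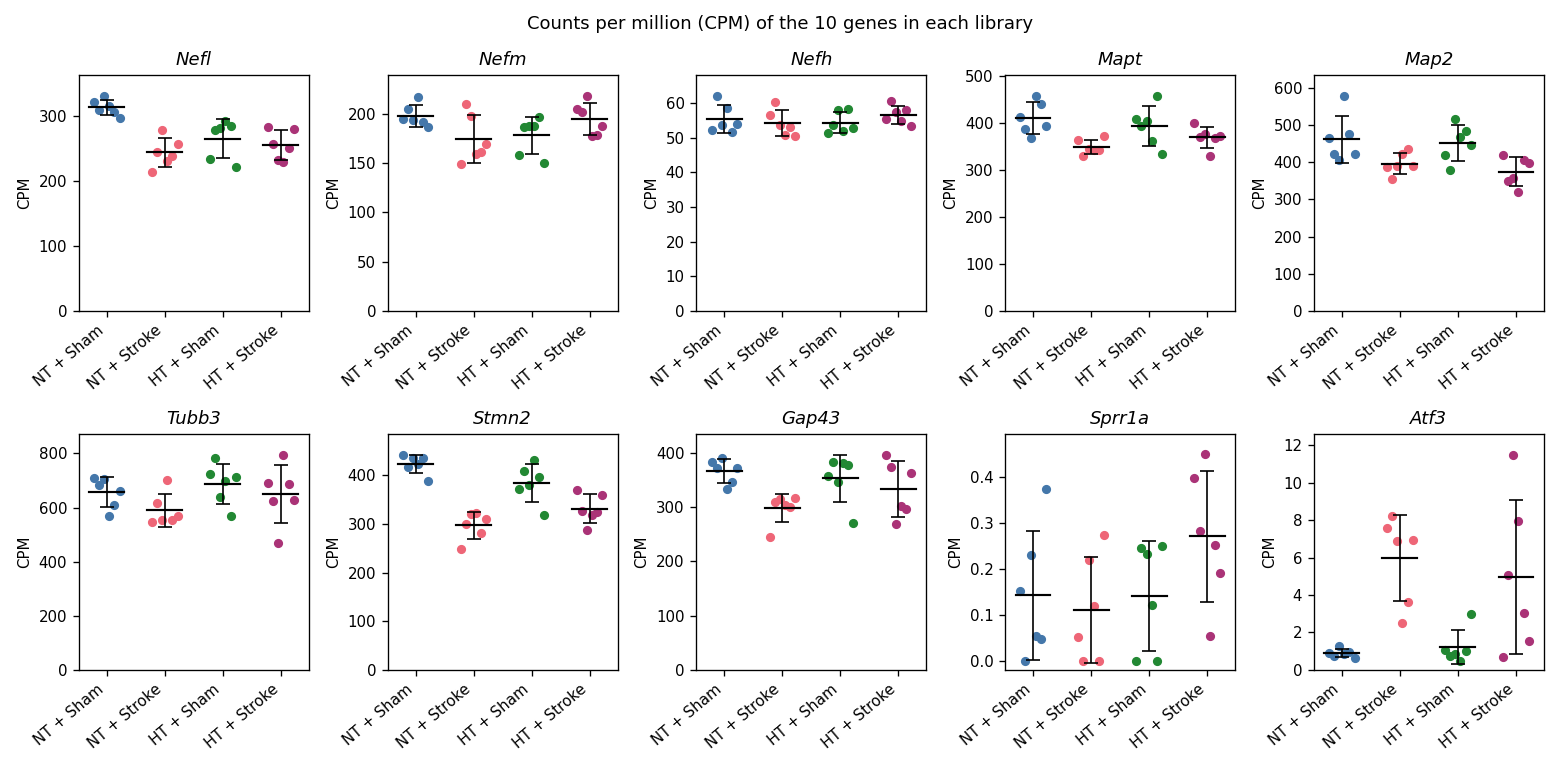
Level of each of the 10 genes in CPM (y axis, linear, own scale per gene) in the 4 groups (x axis), where points are libraries, and bars and whiskers are the mean ± SD of 6 libraries. In NT + Stroke, Atf3 sits above every NT + Sham library, Stmn2, Nefl and Gap43 sit below every one, and Sprr1a stays at or under 0.450 CPM in all groups.

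Stroke in saline-treated mice was the comparison in which most of these genes moved. Of the 9 genes that passed the filter on low counts, 1 was higher and 4 were lower in NT + Stroke than in NT + Sham (edgeR quasi-likelihood test, Benjamini-Hochberg adjusted p under 0.05 over all genes tested). The injury-induced transcription factor Atf3 rose 6.62-fold, and Stmn2, Nefl, Gap43 and Mapt fell, with fitted changes of -29.6 to -14.4%. Across all 16835 genes tested 25.9% were called, 14.4% higher and 11.5% lower. The median log2 difference was -0.22 over the 9 genes and -0.01 over all genes tested. The groups did not overlap for 4 of the 9 genes, against 13.5% of all genes tested.

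The neurofilament genes did not move alike. Nefl (ENSMUSG00000022055, chr14:68083863-68089095, GRCm38, plus strand), the light subunit needed for filament assembly, had a lowest, median and highest level of 296, 313 and 330 CPM in NT + Sham. In NT + Stroke the values were 214, 242 and 278 CPM, and every stroke library was below every sham library. The log2 fold change was -0.36 ± 0.06 (SE, adjusted p = 0.000294). Nefm (ENSMUSG00000022054, chr14:68082590-68124846, minus strand), the medium subunit, was at 187, 194 and 217 CPM in NT + Sham and 150, 166 and 210 CPM in NT + Stroke, with overlapping groups. Its log2 fold change was -0.18 ± 0.08 (adjusted p = 0.102). Without NT + Stroke library 2, the Nefm difference was -0.22 with an adjusted p of 0.0288, and with genes down to a single count it was -0.20 with an adjusted p of 0.0496. That was the only call of Nefm among 12 fits with 1 library left out, where the adjusted p reached 0.271. Nefh (ENSMUSG00000020396, chr11:4938754-4948064, minus strand), the heavy subunit, was at 51.5, 53.8 and 62.0 CPM in NT + Sham and 50.5, 53.4 and 60.3 CPM in NT + Stroke. The groups overlapped over nearly their whole range, and the log2 fold change of -0.03 had a 95% interval of -0.16 to 0.10 (adjusted p = 0.798).

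The proportions of the subunits are given as FPKM ratios. The ratio of Nefm to Nefl was 0.370 ± 0.0219 (SD, n = 6) in NT + Sham, 0.419 ± 0.0428 in NT + Stroke, 0.393 ± 0.00969 in HT + Sham and 0.449 ± 0.0554 in HT + Stroke. The ratio of Nefh to Nefl was 0.150 ± 0.0127, 0.189 ± 0.0234, 0.175 ± 0.0175 and 0.189 ± 0.0206 in the same order. Nefl and Nefm lie on opposite strands and share 1108 exonic bases, which is 32.8% of the exonic bases of Nefl and 19.2% of those of Nefm. Whether reads were counted by strand is not given in the sources used here, so the counts of these 2 genes are uncertain to that extent.

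The 3 microtubule genes had log2 differences of -0.22 to -0.15. Mapt (ENSMUSG00000018411, chr11:104231390-104332090, plus strand) encodes tau, which binds axonal microtubules. Its lowest, median and highest level was 368, 404 and 458 CPM in NT + Sham and 331, 345 and 372 CPM in NT + Stroke, and 5 of 6 stroke libraries were below every sham library. The log2 fold change was -0.22 ± 0.06 (adjusted p = 0.00958), and with no scaling beyond library size the call was lost, at -0.16 (adjusted p = 0.0867). Map2 (ENSMUSG00000015222, chr1:66175273-66442583, plus strand), which binds microtubules of dendrites and cell bodies, was at 407, 444 and 577 CPM in NT + Sham and 354, 390 and 434 CPM in NT + Stroke. All 6 stroke libraries were below the sham median, but the groups overlapped, and the log2 fold change of -0.22 ± 0.08 had an adjusted p of 0.0514. Leaving out NT + Sham library 3 or 6 or NT + Stroke library 5 gave an adjusted p of 0.0329, 0.0456 or 0.0388 for Map2. DESeq2 gave 0.0304 for Map2, and edgeR gave 0.0117 when genes down to a single count were fitted. With all 4 groups in one edgeR fit the adjusted p of Map2 was 0.0675. Tubb3 (ENSMUSG00000062380, chr8:123411424-123422015, plus strand) was at 569, 672 and 711 CPM in NT + Sham and 546, 562 and 702 CPM in NT + Stroke. Its groups overlapped, with a log2 fold change of -0.15 ± 0.07 (adjusted p = 0.149), and without NT + Stroke library 4 the adjusted p was 0.0470. That was the only call of Tubb3 among 12 fits with 1 library left out, where the adjusted p reached 0.332.

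Both growth-associated genes of high level fell after stroke. Stmn2 (ENSMUSG00000027500, chr3:8509360-8561606, plus strand) encodes a stathmin that binds tubulin and is enriched in growing axons. Its NT + Sham libraries were at 389, 429 and 441 CPM (lowest, median, highest) and its NT + Stroke libraries at 249, 305 and 323 CPM. The groups did not overlap, and the log2 fold change of -0.51 ± 0.07 (adjusted p = 1.59e-05) was a change of -29.6%, with a 95% interval of -35.9 to -22.6%. Gap43 (ENSMUSG00000047261, chr16:42248442-42340651, minus strand) encodes a membrane protein of growth cones and presynaptic terminals. It was at 334, 372 and 390 CPM in NT + Sham and 246, 306 and 316 CPM in NT + Stroke, with no overlap. The log2 fold change of Gap43 was -0.29 ± 0.07 (adjusted p = 0.00285).

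Atf3 (ENSMUSG00000026628, chr1:191170296-191218039, minus strand) encodes a stress-induced transcription factor that is switched on in axotomised neurons and also in activated macrophages. The 6 NT + Sham libraries held 12 to 22 counts of Atf3, and the 6 NT + Stroke libraries held 63 to 177. As levels these were 0.641, 0.883 and 1.27 CPM (lowest, median, highest) in NT + Sham and 2.53, 6.93 and 8.21 CPM in NT + Stroke. Every stroke library was above every sham library. The log2 fold change was 2.73 ± 0.28 (adjusted p = 3.02e-06), or 6.62-fold with a 95% interval of 4.38 to 10.02.

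In both stroke groups the lowest and highest Atf3 levels and lesion macrophage marker sums fell in the same libraries. NT + Stroke library 4 had both the lowest marker sum and the lowest Atf3 level of its group, at 185 and 2.53 CPM, and library 2 had both the highest, at 759 and 8.21 CPM. In HT + Stroke, library 1 had both the lowest, at 50.9 and 0.683 CPM, and library 3 both the highest, at 791 and 11.5 CPM. HT + Sham library 6, with its marker sum of 196 CPM, had the highest Atf3 level of the sham libraries at 3.01 CPM. The extremes did not match otherwise in the sham groups. NT + Sham library 3 had the lowest marker sum of its group, at 27.7 CPM, and the highest Atf3 level, at 1.27 CPM. In HT + Sham the lowest marker sum was in library 5, at 26.5 CPM, and the lowest Atf3 level in library 4, at 0.483 CPM. Which cells held the Atf3 RNA was not tested.

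**Figure D2:**
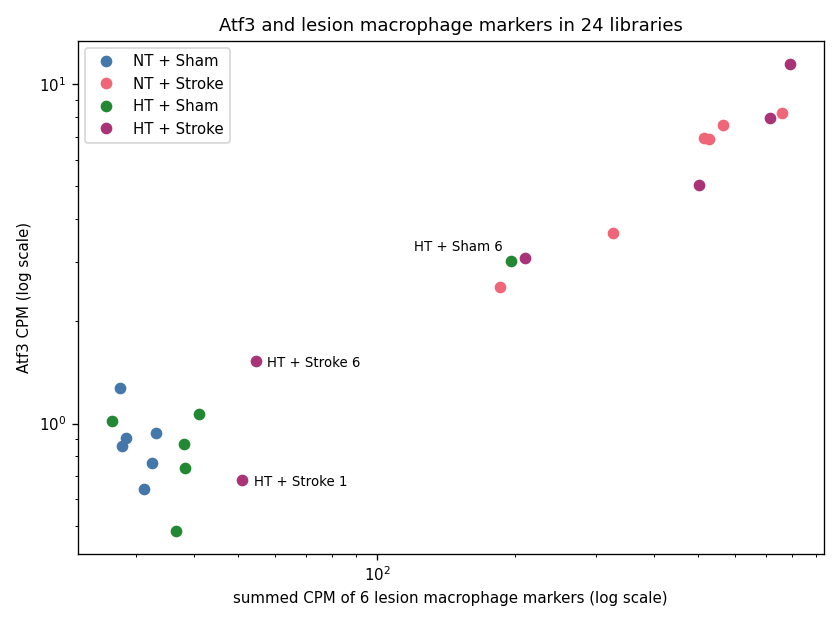
Atf3 level in CPM (y axis, log scale) against the summed CPM of 6 lesion macrophage markers (x axis, log scale), where each point is 1 of 24 libraries coloured by group. HT + Sham library 6 (196 and 3.01 CPM) lies among the stroke libraries, and HT + Stroke libraries 1 and 6 (50.9 and 54.5 CPM on the x axis) lie near the sham libraries.

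Sprr1a (ENSMUSG00000050359, chr3:92483952-92485895, minus strand) encodes a small proline-rich protein known from keratinocytes and from regenerating sensory neurons. It had 0 to 7 counts per library in NT + Sham, 0 to 7 in NT + Stroke, 0 to 5 in HT + Sham and 1 to 10 in HT + Stroke. The group totals were 16, 15, 15 and 31 counts in that order. It did not pass the filter in any comparison. When genes down to a single count were fitted, the log2 difference of Sprr1a between HT + Stroke and NT + Stroke was 1.19 ± 0.68 (adjusted p = 0.607), so these counts are too few to show one. Of the other small proline-rich and cornified envelope genes listed, 3 passed the filter and 0 were called by edgeR in NT + Stroke vs NT + Sham. The keratin gene Krt10, named after its values were seen, was called higher in HT + Stroke vs NT + Sham at 0.43 (edgeR adjusted p = 0.0459) and in HT + Stroke vs HT + Sham at 0.50 (edgeR adjusted p = 0.0497). In NT + Stroke vs NT + Sham it was at 0.33 (edgeR adjusted p = 0.0525), and in HT + Stroke vs NT + Stroke at 0.10 (edgeR adjusted p = 0.786).

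The promoters of Sprr1a and Atf3 are shown because these 2 genes are commonly cited together as regeneration-associated genes, while one rose after stroke here and the other stayed near its detection limit. Each line runs from 250 bases before to 50 bases after the RefSeq start (GRCm38.p6), and 4 of the 10 genes had an entry. The motifs searched on both strands were the AP-1 site TGANTCA, the cyclic AMP response element TGACGTCA, the TATA box TATAAA and the GC box GGGCGG, and matches are in capitals.
Atf3, chr1:191183284-191183583, minus strand: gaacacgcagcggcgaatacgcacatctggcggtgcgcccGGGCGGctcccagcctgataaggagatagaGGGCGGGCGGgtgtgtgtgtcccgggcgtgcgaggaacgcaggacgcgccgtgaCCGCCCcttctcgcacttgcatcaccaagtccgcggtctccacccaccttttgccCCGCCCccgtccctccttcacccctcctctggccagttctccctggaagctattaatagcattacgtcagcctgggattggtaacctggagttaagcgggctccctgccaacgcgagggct
Sprr1a, chr3:92485832-92486131, minus strand: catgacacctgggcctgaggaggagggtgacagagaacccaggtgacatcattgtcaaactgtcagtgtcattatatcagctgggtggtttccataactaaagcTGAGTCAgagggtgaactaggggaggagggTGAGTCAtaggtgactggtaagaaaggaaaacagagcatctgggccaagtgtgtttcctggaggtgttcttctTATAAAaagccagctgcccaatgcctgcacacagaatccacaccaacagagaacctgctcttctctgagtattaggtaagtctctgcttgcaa

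The Sprr1a window held 2 AP-1 matches, with their first base at -146 and -116 from the start, and 1 TATA match at -43. The Atf3 window held 5 GC box matches, of which a pair overlaps, and no match of the other 3 motifs. Among 32851 RefSeq promoters of the same length, 7.81% held the AP-1 letters, 1.79% the cyclic AMP response element, 13.6% the TATA box and 35.7% the GC box. The listed Atf3 start lies inside the span that the tables give for the gene, which continues upstream to base 191218039. These matches describe the letters in the window only.

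Neuronal marker lists moved unequally after stroke. Of 10 neuron reference genes that are not among the 10 genes studied, 6 were lower and 0 higher in NT + Stroke than in NT + Sham, with a median log2 difference of -0.26. Among them Snap25, of the synaptic fusion machinery, had a difference of -0.41 (adjusted p = 3.34e-05) and the neuronal surface protein gene Thy1 had -0.35 (adjusted p = 0.00219). All 7 markers of excitatory cortical neurons were lower, with a median of -0.58. Of 6 inhibitory neuron markers, 2 were higher and 2 lower, with a median of 0.01. Of these Slc32a1, the vesicular GABA transporter gene, was at 0.45 (adjusted p = 0.00119) and Gad2, a GABA synthesis gene, at 0.37 (adjusted p = 0.00899), while the neuropeptide genes Sst and Vip were at -0.53 (adjusted p = 0.0151) and -0.35 (adjusted p = 0.000529). When libraries were scaled to the 10 reference genes in place of TMM, which moved the median of all genes to 0.24 (log2), 3 genes were called. That setting called 7517 of all 16835 genes tested, 7288 higher and 229 lower. Stmn2 stayed lower at -0.26 ± 0.06 (adjusted p = 0.000841) and Atf3 stayed higher at 2.99 ± 0.29 (adjusted p = 6.58e-07). Under that scaling Nefl was at -0.11 (adjusted p = 0.145), Gap43 at -0.04 (adjusted p = 0.494) and Mapt at 0.02 (adjusted p = 0.826). Nefm, Map2 and Tubb3, negative under TMM, were at 0.06, 0.03 and 0.10 and were not called. Nefh, at -0.03 under TMM, was called higher at 0.22 (adjusted p = 0.0268), which is close to the shift of all genes.

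**Figure D3:**
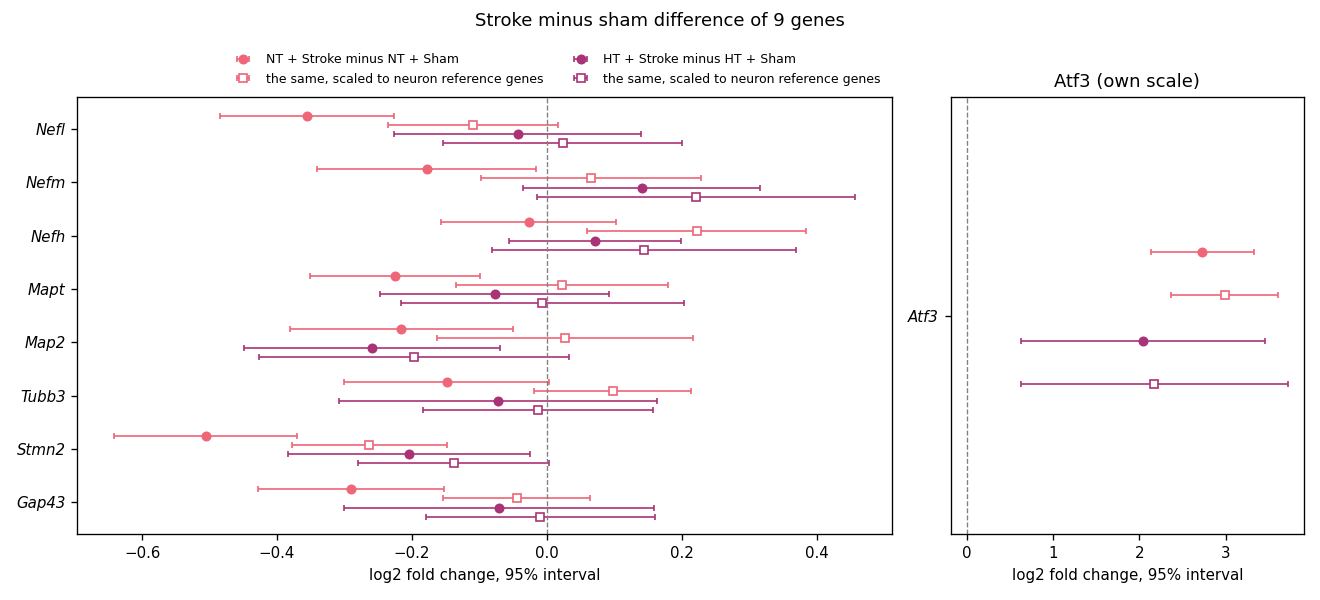
Log2 fold change of stroke over sham (x axis, with 95% intervals) for 9 genes (y axis), in NT mice (pink) and HT mice (purple), with TMM scaling (circles) and scaled to neuron reference genes (squares), and with Atf3 on its own scale. Stmn2 and Atf3 keep intervals that leave out 0 in NT mice under both scalings, while Nefl, Gap43 and Mapt move towards 0 under the reference scaling.

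Other cytoskeleton genes were read from gene lists. Of the other microtubule-associated and microtubule-regulating genes, 0 were higher and 9 lower of 22 tested in NT + Stroke vs NT + Sham, among them the stathmin gene Stmn1 at -0.47 (adjusted p = 0.000299) and Map7d2 at -0.39 (adjusted p = 0.00013). Another stathmin gene, Stmn3, at -0.30 (adjusted p = 0.0175), is counted both here and among the neuron reference genes used for scaling. Of 12 axonal transport motor genes, 0 were higher and 7 lower, including the kinesin heavy chains Kif5c at -0.41 (adjusted p = 0.000255) and Kif5a at -0.38 (adjusted p = 0.0018). Of 8 genes of the axon initial segment and membrane skeleton, 3 were lower, including the spectrin gene Sptan1 at -0.30. The neuronal intermediate filament gene Ina was lower at -0.27 (adjusted p = 0.00075). The other tubulins moved both ways, with 3 higher and 4 lower of 13. Tubb6, a tubulin of many non-neuronal cells, was higher at 1.06 (adjusted p = 3.29e-05), while Tuba4a was lower at -0.31 (adjusted p = 0.00377). These counts stand beside the 14.4% higher and 11.5% lower of all genes tested.

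The other regeneration-associated genes were mixed. Of 28 tested, 11 were higher and 5 lower in NT + Stroke vs NT + Sham, with a median log2 difference of 0.30. Cd44, a hyaluronan receptor that immune and glial cells also carry, was higher at 2.32 (adjusted p = 1.32e-07), and the urokinase receptor gene Plaur was higher at 1.17 (adjusted p = 0.000195). The neuropeptide gene Adcyap1 was lower at -0.62 (adjusted p = 0.013) and the cell adhesion gene Chl1 at -0.53 (adjusted p = 0.000186). Of 10 stress response genes related to Atf3, 4 were higher and 2 lower, with Gdf15 at 2.09 and Hmox1 at 1.70 among the former and Chac1 at -0.39 and Asns at -0.34 among the latter. Of 12 genes that restrain axon growth, 1 was higher and 5 lower, including the Nogo receptor Rtn4r at -0.56 and its partner Lingo1 at -0.47. In the same comparison all 6 lesion macrophage markers, all 4 fibroblast markers and 5 of 6 microglia markers were higher. Of all genes tested there, 14.4% were called higher and 11.5% lower.

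Angiotensin II alone was examined in sham mice. Of the 9 genes tested, 0 were called in HT + Sham vs NT + Sham by edgeR, 2 had an unadjusted p under 0.05, and DESeq2 called 0. Across all 16581 genes 0.0% were called, with 1332 at an unadjusted p under 0.05 and 0 called by DESeq2. Nefl was at 222, 279 and 292 CPM (lowest, median, highest) in HT + Sham, and all 6 libraries were below the lowest NT + Sham library at 296 CPM. Such a separation was seen in 0.344% of genes tested. The log2 fold change of Nefl was -0.24 ± 0.07, with a 95% interval of -0.40 to -0.08 (edgeR adjusted p = 0.426), so the separation did not pass the adjustment over all genes. The other 8 genes overlapped between the groups. Nefm differed by -0.15 (edgeR adjusted p = 0.618), and Atf3 by 0.44 ± 0.36 (edgeR adjusted p = 0.842). Without HT + Sham library 6, Atf3 differed by -0.09, Nefl by -0.20, Nefm by -0.11 and Gap43 by 0.01, and 0 of the 9 genes were called by edgeR, with Nefl at an unadjusted p of 0.0126. Atf3 was at 0.483 to 1.07 CPM in the 5 HT + Sham libraries other than library 6.

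Stroke in angiotensin II-treated mice was compared with their own sham group. In HT + Stroke vs HT + Sham, 0 of 9 genes were called by edgeR, 3 had an unadjusted p under 0.05 (Atf3, Map2 and Stmn2), and DESeq2 called 1 (Atf3, adjusted p = 0.0413). Of all genes tested 0.645% were called, and 1.15% did not overlap between the groups. Atf3 was at 0.683, 4.06 and 11.5 CPM (lowest, median, highest) in HT + Stroke and 0.483, 0.944 and 3.01 CPM in HT + Sham, with overlapping groups. Its log2 fold change was 2.04 ± 0.65, with an interval of 0.63 to 3.46 (edgeR adjusted p = 0.139), and it was 2.26 (adjusted p = 0.0464) without HT + Stroke library 1. No other of the 12 fits with 1 library left out called Atf3, and the adjusted p reached 0.281. Map2 was at 320, 378 and 420 CPM in HT + Stroke and 380, 456 and 517 CPM in HT + Sham. All 6 HT + Stroke libraries of Map2 were below the HT + Sham median, and its difference was -0.26 ± 0.09 (edgeR adjusted p = 0.151). Stmn2 was at 287, 325 and 369 CPM in HT + Stroke against 318, 389 and 432 CPM in HT + Sham, a difference of -0.20 ± 0.09 (edgeR adjusted p = 0.229). The other 6 genes had differences of -0.08 to 0.14.

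Without HT + Sham library 6 and HT + Stroke libraries 1 and 6, Atf3 differed by 3.03 ± 0.36 (edgeR adjusted p = 0.000178) and Stmn2 by -0.34 ± 0.09 (edgeR adjusted p = 0.029). Map2 then differed by -0.34 (edgeR adjusted p = 0.0798), Gap43 by -0.25 (edgeR adjusted p = 0.174) and Nefl by -0.18 (edgeR adjusted p = 0.294). The number of genes called in the whole table was 108 with all libraries and 1437 without the 3. These libraries were chosen after their lesion markers were seen, so none of the differences without them is independent of that choice, here and in the other comparisons.

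HT + Stroke was also set against NT + Sham, which shares its control libraries with the stroke and angiotensin II comparisons above. Of 9 genes tested, 1 was higher and 3 were lower, where 14.7% of all genes tested were called, 8.38% higher and 6.37% lower, and 5.93% did not overlap. Atf3 was higher by 2.49 ± 0.57 (edgeR adjusted p = 0.0154), and 5 of 6 HT + Stroke libraries were above every NT + Sham library. Stmn2 was lower, at -0.35 ± 0.07 (edgeR adjusted p = 0.00963) and Nefl too, at -0.28 ± 0.07 (edgeR adjusted p = 0.0139), both with no overlap. The Nefl call was lost when libraries were scaled to neuron reference genes, at -0.17 (adjusted p = 0.0901), and the Atf3 call in limma on log2(FPKM + 1), at 1.05 (adjusted p = 0.0551). Map2 was lower, at -0.29 ± 0.09 (edgeR adjusted p = 0.0418), and this call was lost without any of NT + Sham libraries 1, 4 or 5 (adjusted p = 0.0787, 0.095 and 0.0803) or HT + Stroke libraries 2, 3 or 4 (adjusted p = 0.0976, 0.058 and 0.0937). The Map2 call was also lost with no scaling beyond library size (adjusted p = 0.0637), with neuron reference scaling (adjusted p = 0.298) and in limma on log2(FPKM + 1) (adjusted p = 0.0909). Gap43 at -0.13 (edgeR adjusted p = 0.396) and Mapt at -0.14 (edgeR adjusted p = 0.185) were not called. Without HT + Stroke libraries 1 and 6, Atf3 differed by 2.95, Stmn2 by -0.42, Nefl by -0.36 and Map2 by -0.35, and all 4 were called. The calls over all genes were 2470 of 16749 tested with all libraries and 3544 of 17168 without libraries 1 and 6.

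Angiotensin II was further compared within stroke mice. In HT + Stroke vs NT + Stroke, 0 of 9 genes were called by edgeR, 0 had an unadjusted p under 0.05, and DESeq2 called 0. Of all genes tested 0.0% were called by edgeR, with 1230 at an unadjusted p under 0.05 and 0 called by DESeq2, and 0.159% did not overlap. All 9 genes overlapped between the groups. The 95% intervals of the difference ran from -0.10 to 0.22 for Nefl, -0.05 to 0.20 for Mapt, -0.02 to 0.32 for Stmn2, -0.09 to 0.36 for Tubb3, -0.05 to 0.36 for Gap43 and -0.03 to 0.34 for Nefm. Without HT + Stroke libraries 1 and 6, 0 of the 9 genes were called, and the differences of the genes other than Atf3 were -0.15 (Map2) to 0.15 (Nefm). For Atf3 the difference of -0.25 had an interval of -1.49 to 0.98, and it was 0.21 with an interval of -0.65 to 1.07 without HT + Stroke libraries 1 and 6. Its spread was wider in HT + Stroke (4.96 ± 4.13 CPM, SD, n = 6) than in NT + Stroke (5.97 ± 2.31 CPM).

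The interaction term asks whether the stroke difference itself differed between HT and NT mice. It was called for 0 of 9 genes by edgeR, 3 of which had an unadjusted p under 0.05, and for 0 by DESeq2. Of all genes tested 0.0% were called by edgeR, with 1836 at an unadjusted p under 0.05, and DESeq2 called 22. Nefl had an interaction of 0.31 ± 0.11 with an interval of 0.09 to 0.52 (edgeR adjusted p = 0.324), Nefm 0.31 ± 0.12 (edgeR adjusted p = 0.368) and Stmn2 0.29 ± 0.11 (edgeR adjusted p = 0.348). The stroke differences behind these terms were -0.04 in HT mice and -0.36 in NT mice for Nefl, 0.14 and -0.18 for Nefm, and -0.20 and -0.51 for Stmn2. Scaled to neuron reference genes, the interaction was 0.13 for Nefl, 0.16 for Nefm and 0.12 for Stmn2. The edgeR p-values before adjustment were then 0.203, 0.282 and 0.132, and the median interaction of all genes was -0.17. Under TMM the 10 neuron reference genes had a median interaction of 0.19, and 0 of them were called. Whether the terms of Nefl, Nefm and Stmn2 differ from those of neuronal genes at large was not tested. Without the 3 libraries named above, the TMM terms of Nefl, Nefm and Stmn2 were 0.18, 0.26 and 0.17. The interaction for Atf3 was -0.69 with an interval of -2.22 to 0.84, and 0.31 with an interval of -0.72 to 1.34 without those libraries. A difference between the stroke responses of HT and NT mice was therefore not shown for any of the 9 genes.

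Within groups, Nefl, Stmn2 and Gap43 varied together from mouse to mouse, while the median r over all pairs of the 9 genes was 0.09. Deviations of log2(CPM + 1) from the group mean over 24 libraries are given as descriptions, since the same libraries also share the marker differences of region and lesion given above. The values were r = 0.83 for Nefl and Stmn2, 0.82 for Stmn2 and Gap43 and 0.77 for Nefl and Gap43. Nefl and Nefm had r = 0.62, Mapt and Map2 had r = 0.53, and Nefl and Nefh had r = 0.03. Atf3 ran against Stmn2 (r = -0.66) and Gap43 (r = -0.64). Tubb3 ran against Mapt (r = -0.50) and Nefm (r = -0.39). Of 36 pairs, 22 had an r above 0, with a range of -0.66 to 0.83.

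**Figure D4:**
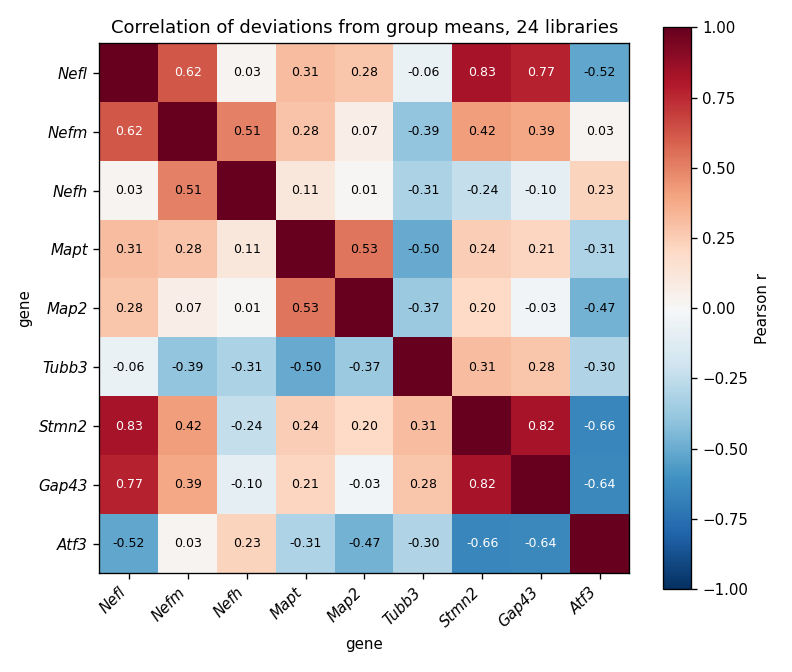
Pearson r (colour and printed value) between the 9 genes above the filter (both axes), from deviations of log2(CPM + 1) from group means over 24 libraries. Nefl, Stmn2 and Gap43 form a set with r of 0.77 to 0.83, and Atf3 is negative against all of them.

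The genes of the whole table most like each member differed in kind. For Atf3 they were Mpeg1, a gene of macrophages (r = 0.97), and Cd84, of the immune cell surface (r = 0.96). For Stmn2 they were Camk2n1 (r = 0.92) and Ywhah (r = 0.91), and for Gap43 Nxph3 (r = 0.92) and Ywhaz (r = 0.91). Nefl was most like Mmd (r = 0.93) and Ppp3r1 (r = 0.93), and Nefm most like Sgpp2 (r = 0.88) and Rab22a (r = 0.87). Map2 was most like Astn1 (r = 0.96) and Gabra3 (r = 0.95), and Mapt most like Plekha6 and Irgq (r = 0.92 for each). Tubb3 was most like Mgst3 and the tubulin gene Tubb2a (r = 0.96 for each). Nefh had the weakest likeness, to Sike1 (r = 0.72) and Pmpcb (r = 0.70). These were chosen from 15495 genes with a mean level of 1 CPM or more, for their r alone.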

How the data were processed

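The deposited tables hold raw counts per gene, made by the authors with featureCounts 1.5.0-p3 per the labels, and FPKM values, in which the authors divided counts by gene length and library size. The aligner, genome build and strand setting are not given in the sources used here. The authors' own fold change and p-value columns were not used, nor were 56 columns of normalized counts and group means. The 4 tables were joined by gene identifier, and a gene missing from a table was set to 0 counts there. Positions match GENCODE M21 on GRCm38 for all 10 genes.

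Counts were tested in R 4.3.3 with edgeR 4.0.16 (filterByExpr with a minimum count of 10 and total of 15, TMM scaling, robust quasi-likelihood test, two-sided, libraries of the groups compared only, all 24 for the interaction). Adjustment was by Benjamini-Hochberg across every gene in the fit, and an adjusted p under 0.05 was called. Fitted standard errors were derived from the test statistic. Scripts were tested on simulated data. The 24 libraries were compared in 276 pairs, and none differed as little as counting noise. CPM used TMM-scaled totals.

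Alternatives were DESeq2 1.42.0, other scalings (none, upper-quartile, neuron reference genes), other filters, limma 3.58.1 on log2(FPKM + 1) and log2(FPKM + 0.1), all groups in one fit, a block on library number, and each library left out. Setting aside HT + Sham library 6 and HT + Stroke libraries 1 and 6 was chosen after seeing the data. All 10 genes are named. From each gene list, the text names at most 2 called genes at each end of the log2 fold changes of NT + Stroke vs NT + Sham, and for likeness the 2 genes with the highest r. The genes and lists were chosen with earlier results of these data known. Counting error weighs most on Atf3 and Sprr1a, whose counts are the lowest of the 10 genes.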

Additional observations from a re-analysis of the deposited data

Results flagged for a closer look

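Of 40 sets of 6 libraries (10 genes in 4 groups), 3 held a library far from the others, by the ratio of its gap to the range of the group (Dixon's test). Chance flags about 1 in 20 such sets. Gap43 was at 245.5 CPM in NT + Stroke library 1, below the other 5 libraries of that group. Gap43 was at 271.0 CPM in HT + Sham library 6, below the other HT + Sham libraries, and Atf3 was at 3.01 CPM in the same library, above the others. That library also had the highest lesion macrophage marker sum of the sham libraries, at 196 CPM. The part of these markers in the values was not tested.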

How the results depend on the processing

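With each library left out in turn, the number of the 9 genes called was 5 to 6 in NT + Stroke vs NT + Sham, 3 to 4 in HT + Stroke vs NT + Sham, and 0 to 1 in HT + Stroke vs HT + Sham. Scaling to neuron reference genes gave 3 calls in NT + Stroke vs NT + Sham and 2 in HT + Stroke vs NT + Sham, and moved Nefh to 0.22, Mapt to 0.022, Nefm to 0.06, Map2 to 0.03 and Tubb3 to 0.10 in the former, all of which had been negative. Of these only Nefh was called. In NT + Stroke vs NT + Sham, 6 were called by DESeq2 and with the replicate block (Map2 at an adjusted p of 0.0304 and 0.0167), 7 with all genes having 1 count, and 4 with no scaling, where Mapt was lost. Scaling to neuron reference genes moved the median of all genes to 0.24 in NT + Stroke vs NT + Sham. The median was 0.12 in HT + Stroke vs NT + Sham and -0.17 for the interaction under that scaling. In that setting calls over all genes in NT + Stroke vs NT + Sham were 7288 higher and 229 lower, against 2426 and 1939 with TMM and 2987 and 1021 with no scaling. In HT + Stroke vs NT + Sham, limma on log2(FPKM + 1) called 2, without Atf3 and Map2. In HT + Stroke vs HT + Sham, DESeq2 and the fit of all 4 groups each called 1, and setting aside the 3 libraries called 2. The genes called over the whole table there were 108 with all libraries, 907 by DESeq2 and 1125 with all 4 groups. A fit with the library number as a replicate block called 2 of the 9 genes in HT + Stroke vs NT + Sham, where Nefl had an adjusted p of 0.0621 and Map2 0.129. Calls over all genes moved there from 2470 to 770. They moved from 4365 to 4636 in NT + Stroke vs NT + Sham, and from 108 to 46 in HT + Stroke vs HT + Sham. The library numbers come from the column names. At most 3 of 6 same-numbered pairs had a correlation of deviations above 0.1 in any comparison, and the highest r was 0.41. No such correlation was taken between libraries of unlike number, so whether the numbers pair the mice was not settled. The cause of these changes was not tested. Atf3 and Stmn2 in NT + Stroke vs NT + Sham were called under each of these settings. Sprr1a, at 0 to 10 counts per library, is limited by depth.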
